A study of Homo sapiens with 15 samples.

Results

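Histone genes were followed in LNCaP cells, a human prostate cancer line that responds to androgen, treated with an androgen with or without an androgen receptor inhibitor. The set held 49 of the 17272 genes of the expression table. It was made of every row whose older symbol names a histone of the gene clusters (HIST1H to HIST4H), an H2A variant (H2AF), an H3.3-type gene (H3F3) or a linker histone outside the clusters (H1F). Of 55 such rows, 6 named as pseudogenes were left out. The set held 37 cluster genes, 11 genes of histone variants and 1 antisense RNA, H1FX-AS1. The cluster genes comprised 1 H1, 9 H2A, 18 H2B, 2 H3 and 7 H4 genes, of which 33 are protein coding and 4 (HIST2H2BA, HIST2H2BB, HIST2H2BC and HIST2H2BD) are pseudogenes in RefSeq.

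All cells were kept for 2 days in starvation medium with charcoal-stripped serum and were then given 1 nM R1881, a synthetic androgen. The 10 control libraries were of cells given R1881 with DMSO, and the 5 others were of cells given R1881 with 2 µM enzalutamide, which blocks the androgen receptor. Cells were collected after 22 h, and no library of cells without R1881 was analysed here. In the labels, R1881 libraries carry the numbers 51 to 55 or 71 to 75, and enzalutamide libraries 81 to 85. The sources used here do not say what the numbers stand for, and no series of numbers holds both treatments, so series and treatment cannot be told apart. All libraries are of a single cell line.

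Histones are the proteins around which DNA is wound. Cluster histone genes are made into RNA mostly during S phase, and their mRNA is known for ending in a stem-loop in place of a poly(A) tail. The variant genes, also called replacement histones, lie outside the clusters, mostly make polyadenylated mRNA and are mostly expressed through the cell cycle. RNA was selected on poly(A) in this study. The values of the cluster genes, and of any variant with the stem-loop, therefore cover polyadenylated transcripts, and their total mRNA was not measured.

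The sequences that set the 2 kinds of genes apart were read from the reference. A stem-loop of 16 bases was found within 150 bases after the stop codon in 33 of the 33 coding cluster genes, at 23 to 68 bases from it (median 36). Among the 11 variant genes it was found in 1, H2AFX, at 50 bases. Of all 19061 protein-coding genes with a MANE Select transcript, 73 (0.383%) had it there, and 72 of these had a histone symbol. The stem-loops took 10 forms over the 34 genes. They are shown because they are the mark of a histone mRNA that can end without a poly(A) tail, with the 2 arms that pair in capitals and the loop in lower case (GRCh38, 5′ to 3′ on the gene's strand, written as DNA):
HIST2H2BE (chr1:149886188-149886203, minus strand), shared by 16 genes: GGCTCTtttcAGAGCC
HIST1H2BK (chr6:27146366-27146381, minus strand), shared by 5 H2B genes: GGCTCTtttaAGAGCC
HIST1H4H (chr6:26285131-26285146, minus strand), shared by 4 H4 genes: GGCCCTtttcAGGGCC
HIST2H4A (chr1:149833032-149833047, plus strand), shared by 3 H4 genes: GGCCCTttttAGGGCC
H2AFX (chr11:119094898-119094913, minus strand), in 1 gene: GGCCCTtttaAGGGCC
The other 5 forms occurred in 1 gene each, HIST1H2BI, HIST1H3E, HIST1H2AG, HIST2H2AC and HIST1H2AK. The arms of the H2AFX stem-loop were the same letters as those of the 7 H4 genes, and none of the other 26 stem-loops had both of these arms.

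GENCODE v44 lists for 16 of the coding cluster genes a transcript that ends more than 100 bases past the stem-loop, and for the other 17 none. The mean over all libraries had a median of 12.6 CPM (read counts scaled library by library, as deposited) for the 16 genes and of 1.39 CPM for the 17. Levels were also taken per kilobase of merged GENCODE v44 exons, which may not be the annotation used for counting. By this measure the median with R1881 was 8.68 CPM for the former and 2.84 CPM for the latter. The ranges overlapped, since HIST1H1C, with no such transcript, stood at 74.6 CPM per kilobase and HIST3H2BB, with one, at 0.241. The 11 variant genes had a median of 25.7 CPM per kilobase with R1881, from 1.97 for H2AFY2 to 339.7 for H2AFZ. On the same scale the highest cluster gene was HIST2H2BE, at 97.3 CPM per kilobase.

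Libraries held 15830745 to 25416052 counted reads. The deposited CPM summed to 1053406 to 1078567 per R1881 library and to 985580 to 1008992 per enzalutamide library. Levels and percent changes in CPM are therefore not at equal library totals. By limma on log2(CPM + 0.5) with Benjamini-Hochberg adjustment, 10660 of 17046 tested genes had an adjusted p under 0.05, 5577 lower and 5083 higher with enzalutamide (4288 and 6629 once every library was scaled to the same total). Fold changes are on this log2(CPM + 0.5) scale, which understates the change of genes with few reads. All 12 luminal prostate markers examined were expressed, among them KLK3, the gene of prostate-specific antigen, at 1588 ± 209 (SD, n = 10) CPM with R1881 and 134 ± 7.66 CPM (n = 5) with enzalutamide. Of 12 markers of basal, stromal, immune, endothelial and neuroendocrine cells, 7 (KRT5, TP63, COL1A2, PTPRC, CD3E, PECAM1 and CHGA) had no row and the other 5 (KRT14, COL1A1, ACTA2, VWF and SYP) had means of at most 9.96 CPM in either treatment. Of these 5, COL1A1 (6.03 and 9.96 CPM) and VWF (2.56 and 3.20 CPM) were called higher with enzalutamide, KRT14 (1.02 and 0.10 CPM) and SYP (1.60 and 1.05 CPM) lower, and ACTA2 was not called. Their part in the results was not tested. In bulk RNA, fewer cells of a type and less RNA per cell cannot be told apart.

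Of the 49 histone genes, 47 passed the filter of a mean of at least 0.5 CPM, and HIST2H2BB and HIST1H4K did not. Of the 47, 28 were called, against 62.5% of all tested genes. With enzalutamide 13 were lower, where 32.7% of all tested genes were lower, and 15 were higher, against 29.8% of all tested genes. Of the 11 variant genes, 7 were lower and 2 higher, with a median log2 fold change of -0.21. Of 35 tested cluster genes, 5 were lower and 13 higher, with a median of 0.04, and the median over all tested genes was -0.01. In 9 of the 47 the lowest R1881 library stood above the highest enzalutamide library (20.1% of all tested genes), and in 8 the reverse held (17.1%). On the log2(CPM + 0.5) scale a change of at least 2-fold with an adjusted p under 0.05 was seen in 1 of the 47, H2AFZ (7.45% of all tested genes). HIST1H2AI, a cluster gene of low level, passed the same limits by edgeR and DESeq2, and its mean CPM was 2.11-fold higher.

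**Figure D1:**
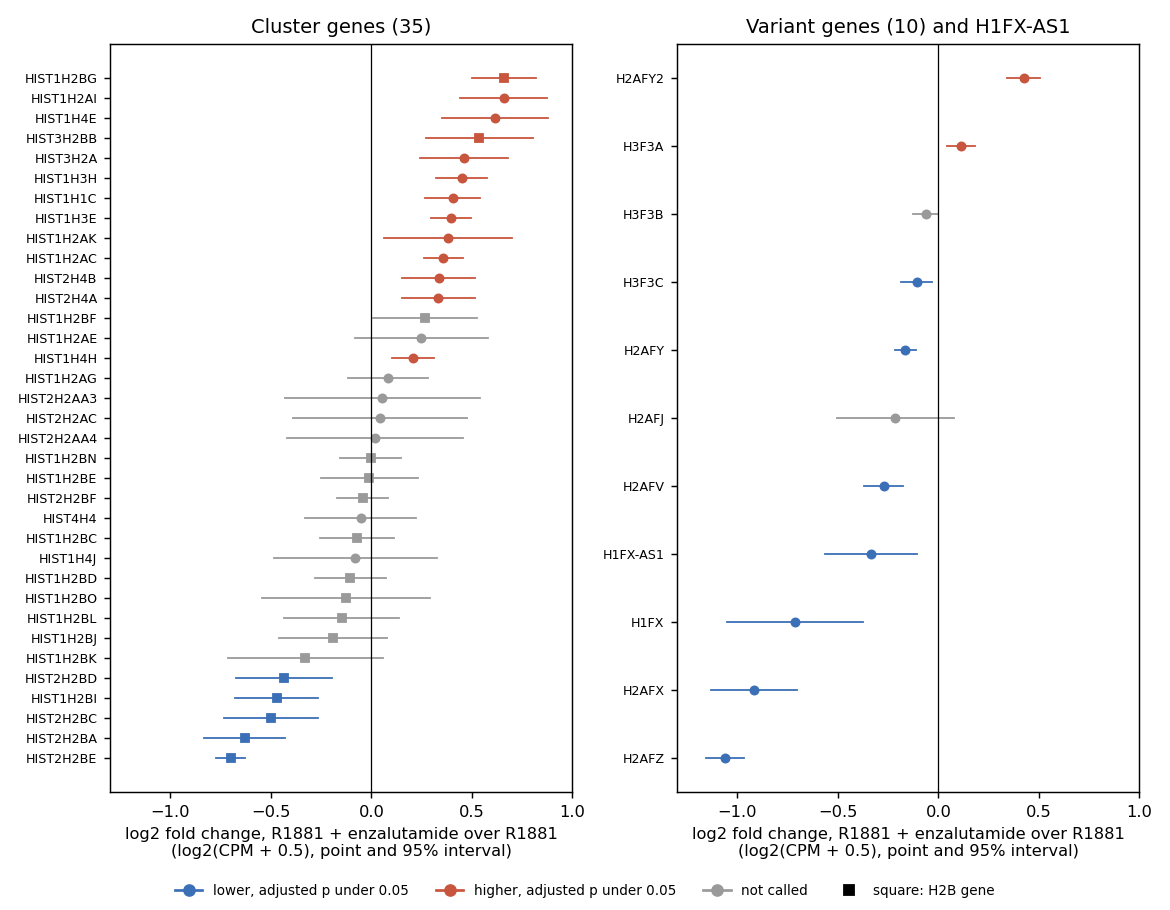
Log2 fold change of R1881 + enzalutamide over R1881 for 46 of the tested histone genes, cluster genes on the left and variants with the antisense RNA on the right, with the 95% interval of the limma fit as a line. Blue points are lower and red points higher with an adjusted p under 0.05, grey points are not called, and squares are H2B genes. The 5 cluster genes called lower are all H2B genes.

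H2AFZ (now H2AZ1) encodes H2A.Z, the H2A variant found beside transcription start sites and put in place of H2A by the SRCAP and EP400 complexes. It was the most abundant variant per length and fell the most. The 10 R1881 libraries lay between 688 and 837 CPM (median 775), and the 5 enzalutamide libraries at 379, 365, 347, 367 and 386 CPM. The treatments did not overlap, and the mean fell by 52.2% (log2 fold change -1.06, SE 0.045, limma adjusted p 1.54e-14). The exact two-sided permutation test over all ways to regroup the 15 libraries gave p = 0.000333, the smallest it can give. It regroups libraries freely across the number series, so it cannot tell series from treatment. The R1881 libraries of both series also stood apart from each other, with means of 818 CPM in 51 to 55 and 725 CPM in 71 to 75. H2AFV (H2AZ2), the second H2A.Z gene, fell by 17.3%, from 180.2 ± 11.95 CPM (SD, n = 10) to 149 ± 8.24 CPM (n = 5). H2AFZ made up 79.8% to 82.4% of the CPM of the pair in the R1881 libraries and 69.8% to 71.9% in the enzalutamide libraries, without overlap.

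H2AFX (H2AX) encodes the variant that is phosphorylated around DNA double-strand breaks. It ranged from 29.8 to 47.9 CPM (median 32.9) in the R1881 libraries and stood at 20.1, 13.4, 21.1, 18.7 and 17.9 CPM with enzalutamide. Every enzalutamide library was below every R1881 library, and the log2 fold change was -0.92 (SE 0.10, limma adjusted p 1.12e-07). Its highest R1881 value came from library 73. H2AFX was the 1 variant with a stem-loop, and 2 of its annotated transcripts end past it. As for the cluster genes, its values cover polyadenylated transcripts and not its total mRNA.

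H1FX (H1-10) encodes a linker histone, and linker histones bind DNA where it enters and leaves the nucleosome. It ranged from 24.9 to 59.96 CPM (median 32.0) with R1881 and stood at 23.8, 14.8, 28.9, 20.7 and 19.1 CPM with enzalutamide. Here the treatments overlapped, and the log2 fold change of -0.71 (SE 0.16, limma adjusted p 0.000706) had the widest standard error of the variants described here. H1FX-AS1, which overlaps H1FX on the opposite strand, had a log2 fold change of -0.34 at 2.65 CPM with R1881 and 1.98 CPM with enzalutamide, and was not called against the R1881 libraries 51 to 55 alone (limma adjusted p 0.111). Whether counting used the strand is not stated in the sources read, so reads of both cannot be told apart.

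The 2 macroH2A genes, whose proteins carry a large extra domain and are known from silenced chromatin, moved in opposite directions. H2AFY (MACROH2A1) lay between 353 and 374 CPM with R1881 and between 319 and 336 CPM with enzalutamide, and fell by 10.9%. Its log2 fold change was -0.17 as deposited and -0.07 with equal library totals (limma adjusted p 7.60e-06 and 0.00783). H2AFY2 (MACROH2A2) lay between 27.8 and 31.5 CPM with R1881 and at 38.6, 40.5, 39.9, 39.5 and 40.2 CPM with enzalutamide, and rose by 34.7% (log2 fold change 0.42, SE 0.039, limma adjusted p 7.24e-09). Neither gene overlapped between treatments. The share of H2AFY2 in the CPM of the pair was 7.11% to 7.99% in the R1881 libraries and 10.7% to 11.1% in the enzalutamide libraries.

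The 3 H3F3 genes changed little. H3F3A and H3F3B encode the same protein, H3.3, the H3 that is put into chromatin outside S phase. H3F3A was higher by 8.12% (408 ± 14.7 and 442 ± 19.1 CPM, log2 fold change 0.11), and H3F3B was not called (475 ± 17.1 and 454 ± 13.8 CPM, log2 fold change -0.06, 95% interval -0.13 to 0.00). H3F3C (now H3-5), a gene known from testis, is a separate variant and not an H3.3 gene. It had 99.7 ± 4.35 CPM with R1881 and 92.4 ± 3.48 CPM with enzalutamide, which passed the threshold (log2 fold change -0.11, limma adjusted p 0.0142). It did not pass by edgeR (adjusted p 0.101) or with equal library totals (limma adjusted p 0.715). Of its 50-base windows 18.5% also occur in H3F3B. The 3 H3F3 genes, H3F3C included, summed to 983 ± 28.0 CPM with R1881 and 988 ± 28.5 CPM with enzalutamide. H2AFJ (H2AJ), a variant known from senescent cells, was not called, with 17.6 ± 4.19 and 15.02 ± 3.13 CPM (95% interval of the log2 fold change -0.51 to 0.08).

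**Figure D2:**
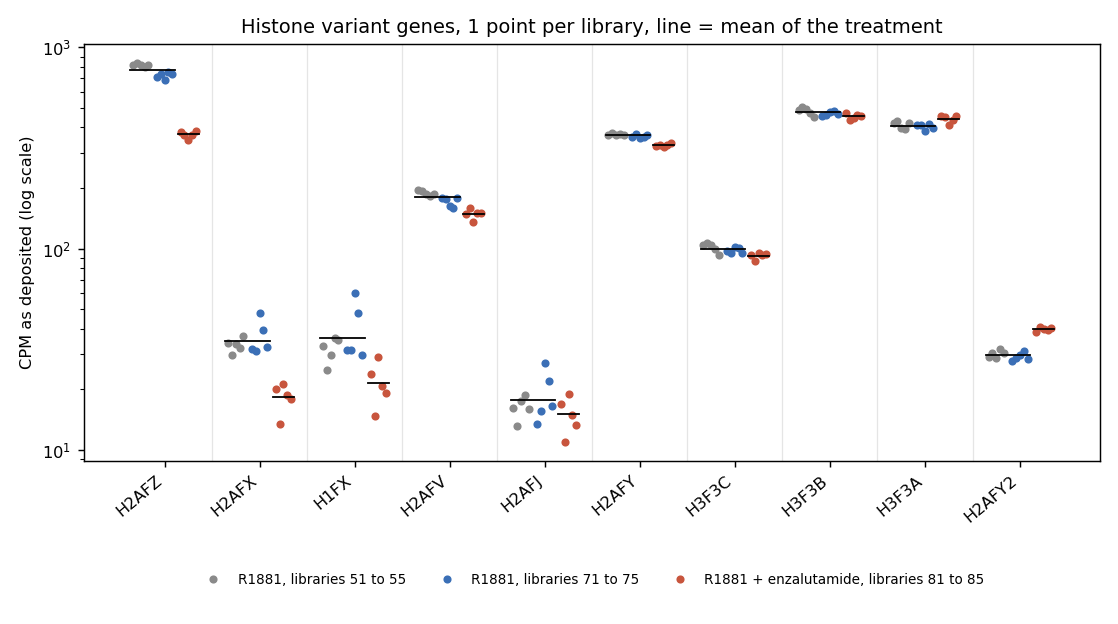
CPM of 10 histone variant genes on a log axis, with 1 point for each of the 15 libraries and the mean of each treatment as a line. Grey and blue points are the R1881 libraries 51 to 55 and 71 to 75, and red points the R1881 + enzalutamide libraries. H2AFZ, H2AFX, H2AFV and H2AFY were lower without overlap and H2AFY2 was higher without overlap.

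Among the cluster genes the 5 lower ones were H2B genes, 2 coding and 3 pseudogenes. HIST2H2BE (H2BC21, chr1:149884459-149886682, minus strand), known for a long polyadenylated transcript, was the most abundant cluster gene in these cells. It lay between 204 and 229.7 CPM (median 216) in the R1881 libraries and at 131, 134, 131, 134 and 134 CPM in the enzalutamide libraries. The treatments were far apart, and the mean fell by 38.6% (log2 fold change -0.70, SE 0.035, limma adjusted p 2.87e-13). It was lower against the R1881 libraries 51 to 55, which averaged 207 CPM, and against 71 to 75, which averaged 226 CPM. HIST1H2BI (H2BC10), at 1.59 ± 0.250 CPM with R1881 and 1.00 ± 0.098 CPM with enzalutamide, was the other coding gene that fell, with a median of 33.5 reads per R1881 library and 22 per enzalutamide library.

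The 3 pseudogenes that fell lie on chromosome 1, as do HIST2H2BE and all other HIST2 genes of the set. Of 10 tested HIST2 genes 4 were lower, 2 higher (HIST2H4A and HIST2H4B, with nearly the same reads) and 4 not called. Among all tested genes 32.7% were lower and 29.8% higher. HIST2H2BA fell from 4.86 ± 0.612 to 2.97 ± 0.504 CPM (log2 fold change -0.63), HIST2H2BC from 2.01 to 1.27 CPM (-0.50) and HIST2H2BD from 1.81 to 1.200 CPM (-0.44). Their exons are largely shared with other copies. Of their 50-base windows 26.2%, 20.3% and 4.95% occur once in the genome, and HIST2H2BD shares 95.05% of its windows with HIST2H2BC. With the far more abundant HIST2H2BE the 3 share 3.63%, 10.7% and 12.8% of their windows. How reads were divided between these genes is uncertain. Whether the 3 falls are separate from each other and from that of HIST2H2BE was not tested.

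The 13 cluster genes that rose were 1 H1, 4 H2A, 2 H2B, 2 H3 and 4 H4 genes. Among the 4 H4 genes, HIST2H4A and HIST2H4B had nearly the same reads and are a single measurement counted under both names. HIST1H2AC (H2AC6), the most abundant H2A gene of the clusters, lay between 82.1 and 98.3 CPM with R1881 and at 114, 119.7, 115, 111 and 116 CPM with enzalutamide (log2 fold change 0.36, SE 0.046, limma adjusted p 1.03e-06). HIST1H1C (H1-2), which encodes the linker histone H1.2, lay between 47.1 and 64.2 CPM with R1881 and at 72.0, 69.8, 81.5, 67.5 and 70.1 CPM with enzalutamide (0.40, SE 0.066). Both rose without overlap. Both H3 genes rose without overlap, HIST1H3E from 21.3 ± 0.928 to 28.2 ± 1.81 CPM and HIST1H3H from 13.4 ± 1.12 to 18.4 ± 0.902 CPM. HIST1H4H, the most abundant H4 gene, rose from 44.9 ± 3.31 to 51.8 ± 1.51 CPM (log2 fold change 0.21), and its highest R1881 library, at 49.96 CPM, was just below its lowest enzalutamide library, at 50.1 CPM. Against the R1881 libraries 71 to 75 alone its log2 fold change was 0.12.

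Larger folds belonged to genes of lower level. HIST1H2BG (H2BC8), an H2B gene, lay between 4.19 and 5.81 CPM with R1881 and at 8.92, 8.19, 8.05, 8.12 and 7.86 CPM with enzalutamide. It did not overlap between treatments and had the highest log2 fold change of the cluster genes (0.66, SE 0.076, limma adjusted p 1.85e-07). HIST1H2AI had the next fold change (0.66), from 0.522 ± 0.135 to 1.10 ± 0.058 CPM, on a median of 10 reads per R1881 library and 25 per enzalutamide library. By edgeR and DESeq2 on the reads, which add no pseudocount of 0.5 CPM, its log2 fold change was 1.105 and 1.085. Only 36.5% of the 50-base windows of HIST1H2AI occur once in the genome. How its reads were divided from those of other copies is uncertain. HIST1H4E rose from 1.91 ± 0.460 to 3.16 ± 0.452 CPM, with overlapping libraries.

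**Figure D3:**
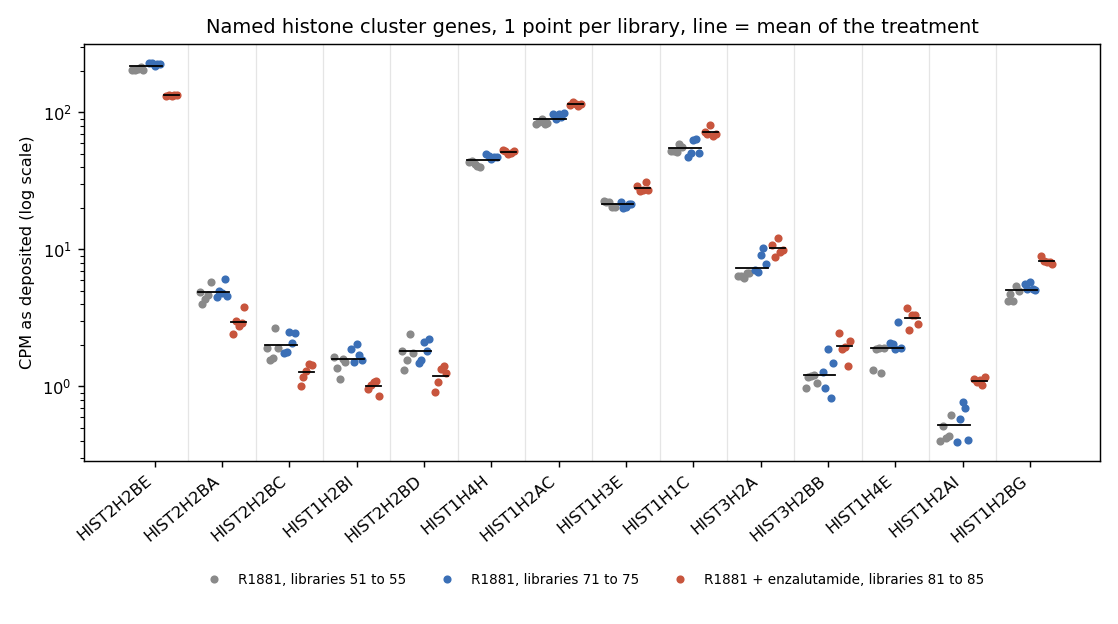
CPM of 14 named cluster genes on a log axis, ordered by log2 fold change, with 1 point per library and the mean of each treatment as a line. Colours mark the R1881 libraries 51 to 55 (grey) and 71 to 75 (blue) and the R1881 + enzalutamide libraries (red). HIST2H2BE lay between 131 and 134 CPM in all enzalutamide libraries, while HIST1H2AC, HIST1H3E, HIST1H1C and HIST1H2BG lay above all R1881 libraries.

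The CPM of each class were then summed in each library, without a test. The 11 variants summed to 2554 ± 80.2 CPM with R1881 and 2017 ± 46.7 CPM with enzalutamide. The 33 coding cluster genes summed to 604 ± 43.4 and 599 ± 16.7 CPM, a difference smaller than the spread between libraries. Their share of all coding histone CPM was 19.1% and 22.9%. By type, the 14 coding H2B genes fell from 295 ± 19.2 to 208 ± 4.02 CPM, while the H2A genes summed to 118 ± 12.05 and 147 ± 4.81 CPM, the H3 genes to 34.7 ± 1.51 and 46.6 ± 2.01 CPM, and the H4 genes to 102 ± 11.5 and 124 ± 3.22 CPM. The H2B difference lay in HIST2H2BE, and the other 13 coding H2B genes summed to 78.5 ± 11.1 and 75.4 ± 5.37 CPM. The sum of the coding cluster genes was 566 CPM in the R1881 libraries 51 to 55 and 642 CPM in 71 to 75, so that the enzalutamide mean lay between those of both series. The H4 sum was 91.7 CPM in 51 to 55 and 113 CPM in 71 to 75. Both HIST2H4A and HIST2H4B, whose reads were nearly the same in every library, enter the H4 sum and the coding cluster sum.

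HIST2H4A and HIST2H4B share all of their 50-base windows, and their reads were equal in 8 of 15 libraries and differed by at most 3 reads in the others, at 383 to 882 reads. Both were called higher (log2 fold change 0.33), which is therefore a single measurement. It depended on the R1881 series, with a log2 fold change of 0.53 against the libraries 51 to 55 and 0.14 against 71 to 75. HIST2H4A averaged 23.2 CPM in the former, 30.5 CPM in the latter and 33.6 CPM with enzalutamide. HIST2H2AA3 and HIST2H2AA4 likewise have no unique window, but the latter had 1.62 to 2.26 times the CPM of the former, and neither was called. HIST1H4J and HIST1H4K share 92.1% of the windows of the former. Of the 23 cluster genes with at least 80% unique windows, 2 were lower and 10 higher, where 32.7% of all tested genes were lower and 29.8% higher.

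H2A and H2B genes of the clusters often lie head to head, starting from a shared stretch of DNA and running in opposite directions. The set held 9 such pairs of genes, with 169 to 290 bases between their starts. In 1 pair both genes were called, HIST3H2A and HIST3H2BB, and both rose, with log2 fold changes of 0.46 and 0.54. In 7 pairs 1 gene was called and in 1 pair neither was, and no pair was called in opposite directions. Of all tested genes 62.5% were called. Among the 7, the pairs HIST2H2AA3 with HIST2H2BD and HIST2H2AA4 with HIST2H2BC are near copies and not separate measurements. HIST2H2BE, at a log2 fold change of -0.70, is paired with HIST2H2AC, at 0.04 with a 95% interval of -0.39 to 0.48. HIST1H2AC, at 0.36, is paired with HIST1H2BC, at -0.07 with an interval of -0.25 to 0.11. HIST1H2BG, at 0.66, is paired with HIST1H2AE, at 0.25 with an interval of -0.08 to 0.58. HIST2H2AC and HIST1H2AE averaged only 1.15 and 1.22 CPM over all libraries, so a partner that was not called may still have changed. The difference within a pair was not tested.

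**Figure D4:**
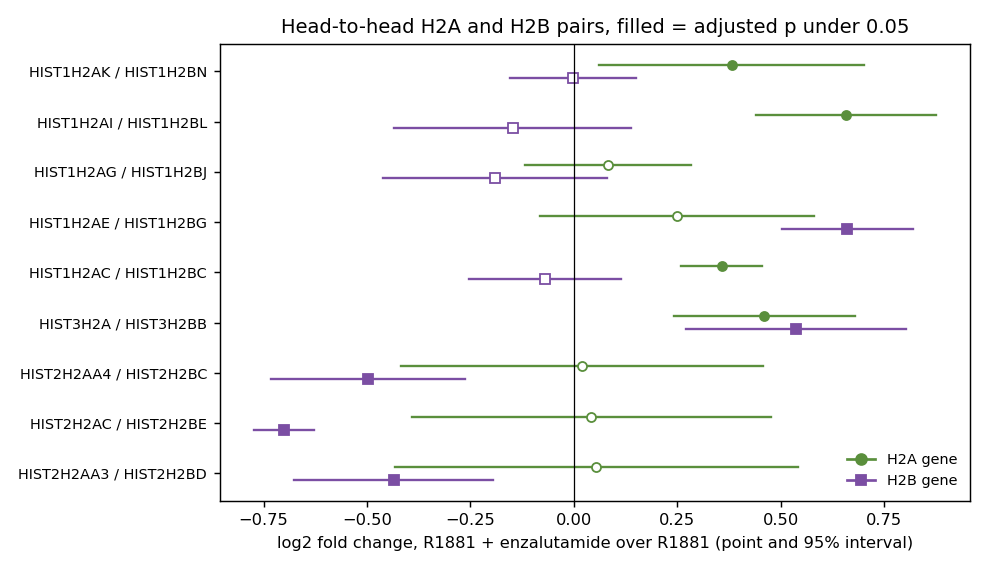
Log2 fold change of R1881 + enzalutamide over R1881 for both genes of the 9 head-to-head pairs, with the 95% interval as a line, circles for H2A genes and squares for H2B genes, and filled symbols for an adjusted p under 0.05. The HIST3 pair is filled on both sides, and HIST2H2BE lies well to the left of its partner HIST2H2AC.

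Start regions were compared for short sequences known from histone promoters. RefSeq start regions of 300 bases (250 before and 50 after the start, GRCh38.p14) were matched for 42 of the 49 genes and compared with 27305 genes. Both strands were searched, and in no histone start region did matches of 2 different motifs overlap. The octamer ATTTGCAT, to which POU2F1 binds, was found in 10 of 14 H2B, 4 of 9 H2A and none of 7 H4 genes of the clusters, and in 1.80% of all regions. The letters CCAAT were found in 14 of 14 H2B, 9 of 9 H2A and none of 7 H4 genes and in 6 of 9 variants (35.7% of all), and TATAAA in 21 of 33 cluster genes and 4 of 9 variants (11.95% of all). E2F-type letters (TTTGGCGC, TTTCGCGC or TTTCCCGC) were found in 7 of 33 cluster genes and none of 9 variants (2.79% of all). TTTGAA, the letters of the cell cycle element CHR, were found in 10 of 33 cluster genes and in 2 variants, H2AFZ and H2AFX (15.4% of all). Of the 10 H2B genes with the octamer, 2 were lower, 1 was higher and 7 were not called, and of all tested genes 32.7% were lower and 29.8% higher. The regions below are those of the 2 variants that fell most, of the H2B gene that fell most and of the H2B gene that rose most, with all of these motifs in capitals:
H2AFZ (chr4:99950226-99950525, minus strand): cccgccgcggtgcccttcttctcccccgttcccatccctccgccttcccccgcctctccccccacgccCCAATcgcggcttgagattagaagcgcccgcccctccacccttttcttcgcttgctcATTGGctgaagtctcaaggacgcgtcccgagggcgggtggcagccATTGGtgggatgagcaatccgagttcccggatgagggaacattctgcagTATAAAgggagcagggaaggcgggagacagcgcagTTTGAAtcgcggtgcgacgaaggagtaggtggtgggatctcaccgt
H2AFX (chr11:119095416-119095715, minus strand): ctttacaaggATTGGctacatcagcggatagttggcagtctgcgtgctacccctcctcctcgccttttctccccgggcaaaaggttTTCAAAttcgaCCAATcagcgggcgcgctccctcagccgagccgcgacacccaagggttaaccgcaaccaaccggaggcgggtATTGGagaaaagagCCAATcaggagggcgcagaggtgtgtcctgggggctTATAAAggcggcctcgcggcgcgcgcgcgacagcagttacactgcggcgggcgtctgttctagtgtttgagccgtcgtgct
HIST2H2BE (chr1:149886633-149886932, minus strand): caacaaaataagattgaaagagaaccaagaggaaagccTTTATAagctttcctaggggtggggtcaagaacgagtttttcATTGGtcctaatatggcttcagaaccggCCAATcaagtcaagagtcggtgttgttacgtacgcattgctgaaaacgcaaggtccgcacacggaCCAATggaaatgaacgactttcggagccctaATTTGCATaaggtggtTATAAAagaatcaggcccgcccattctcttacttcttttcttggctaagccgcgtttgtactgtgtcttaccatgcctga
HIST1H2BG (chr6:26216639-26216938, minus strand): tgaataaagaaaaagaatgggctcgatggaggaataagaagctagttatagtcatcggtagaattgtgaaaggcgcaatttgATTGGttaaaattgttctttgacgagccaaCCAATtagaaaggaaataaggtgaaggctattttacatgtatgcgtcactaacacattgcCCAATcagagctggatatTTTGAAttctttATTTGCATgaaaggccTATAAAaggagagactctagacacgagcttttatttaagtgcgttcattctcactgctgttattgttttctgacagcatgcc
HIST2H2BE and HIST1H2BG, which moved in opposite directions, both held the octamer, CCAAT and TATAAA.

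The genes that act on histone genes and histone proteins were taken as 4 lists. Over the lists 83 genes were tested, of which 49 were lower and 10 higher, with a median log2 fold change of -0.18, against 32.7% lower and 29.8% higher among all tested genes and a median of -0.01. With equal library totals 34 were lower and 17 higher, beside 4288 lower and 6629 higher among all genes. By edgeR 45 were lower and 15 higher, beside 4948 lower and 5796 higher among all genes. Of 10 genes for histone gene transcription, 5 were lower and 2 higher, beside the same 32.7% and 29.8%. E2F1, a transcription factor of the entry into S phase, fell from 35.5 ± 2.98 to 13.1 ± 1.05 CPM (log2 fold change -1.40). CDK2, the kinase that phosphorylates NPAT, fell from 97.4 ± 4.08 to 43.5 ± 3.21 CPM (-1.16), and its partner CCNE2 had a log2 fold change of -0.30. NPAT, the coactivator of the histone locus body, was not called (33.3 ± 2.96 and 36.2 ± 2.97 CPM, 0.12, limma adjusted p 0.114). CASP8AP2, another protein of that body, was lower (-0.20, limma adjusted p 0.0216). POU2F1, the octamer-binding factor, rose from 39.1 ± 2.36 to 57.7 ± 4.03 CPM (0.56), and the acetyltransferase gene CREBBP was also higher (0.17).

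For the processing and decay of histone mRNA 28 genes were tested, of which 17 were lower and 4 higher (all tested genes 32.7% and 29.8%). SLBP, the protein that binds the stem-loop, lay between 82.9 and 95.9 CPM with R1881 and between 54.1 and 63.4 CPM with enzalutamide (log2 fold change -0.59, SE 0.045, limma adjusted p 3.28e-10), without overlap. ZCCHC6 (TUT7), an enzyme that adds uridines to RNA ends, fell from 98.2 ± 6.12 to 42.9 ± 4.42 CPM (-1.19), while the related ZCCHC11 (TUT4) was higher (0.24). SNRPB, a core protein of spliceosomal snRNPs and of the U7 snRNP that cuts histone mRNA, was lower (-0.56), and LSM11, another protein of the U7 snRNP, was higher (6.98 ± 1.33 and 9.34 ± 0.478 CPM, 0.41). CSTF3, a subunit of a cleavage factor, was higher (0.22).

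Of 30 tested histone chaperones, which carry histones to and from DNA, 19 were lower and 3 higher (all tested genes 32.7% and 29.8%). ASF1B, which hands H3 and H4 on during replication, fell from 34.4 ± 2.64 to 12.99 ± 0.934 CPM (log2 fold change -1.37). HJURP, the chaperone of the centromeric H3 variant CENPA, had a log2 fold change of -1.31, and TONSL, which reads newly made H4, of -0.85. NAP1L1, a chaperone of H2A and H2B, was higher (0.45), as was ATRX (0.27), which acts with DAXX on H3.3. Of 16 tested genes for the exchange of H2A.Z and the loading of CENPA, 8 were lower and 2 higher, beside 32.7% and 29.8% of all tested genes. CENPA and OIP5, which act at the centromere, had log2 fold changes of -0.86 and -0.69. ANP32E, known to take H2A.Z out of nucleosomes and a member of both lists, rose from 22.0 ± 2.42 to 38.4 ± 2.99 CPM (0.79), and DMAP1, a subunit of the loading complexes, was higher (0.19).

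The spread between libraries differed from gene to gene. Among the 26 histone genes with a mean of at least 5 CPM, the coefficient of variation (CV) over the 10 R1881 libraries ran from 1.80% for H2AFY to 40.04% for HIST2H2AA4, with a median of 8.16%. In 4 of them, H1FX, HIST1H2BK, HIST2H2AA4 and H2AFJ, it was at least 20%. In 17 of the 49 histone genes the R1881 libraries 73 and 74 were the 2 highest of the 10, and in 15 of these library 83 was the highest with enzalutamide. The median GC content of the transcripts was 58.3% in these 17 genes and 48.4% in the others. As a measure of each library, Spearman's rho between GC content and the deviation from the treatment mean over 14638 genes was 0.72 in library 73, 0.56 in library 74 and 0.70 in library 83, and ranged from -0.62 to 0.21 in the other 12. HIST1H2BK, at 12.2 to 32.1 CPM with R1881 and 11.5 to 22.6 CPM with enzalutamide, was not called over all libraries (log2 fold change -0.33, limma adjusted p 0.13) and was called without these 3 (-0.29, limma adjusted p 0.0158, chosen after the data were seen). H1FX remained lower without them (-0.67). After a fitted GC trend was subtracted library by library, H1FX stood at -0.70 (limma adjusted p 2.04e-11) and HIST1H2BK at -0.30 (limma adjusted p 0.0543). The fold change of HIST1H2BK was -0.08 against the R1881 libraries 51 to 55 and -0.57 against 71 to 75.

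**Figure D5:**
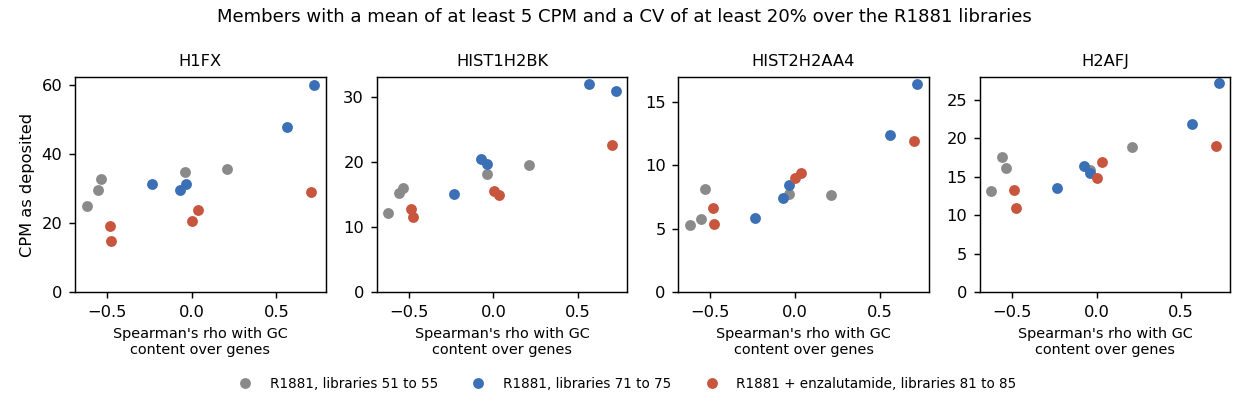
CPM of 4 histone genes in each library against Spearman's rho between GC content and the library's deviation from its treatment mean, over 14638 genes. Grey, blue and red points are the R1881 libraries 51 to 55, the R1881 libraries 71 to 75 and the R1881 + enzalutamide libraries. The libraries with the 3 highest rho, 0.56 to 0.72, hold the highest values of their treatment in all 4 genes.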

How the data were processed

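Polyadenylated RNA of 15 LNCaP libraries (TruSeq Stranded mRNA Kit, single-end reads on a HiSeq2500) was analysed. The sample labels give 10 R1881 and 5 R1881 + enzalutamide libraries, and the methods of the study give the numbers the other way round. The labels were followed. The authors used bcl2fastq 2.17, aligned to GRCh38 with STAR and quantified with featureCounts. The deposited table holds a signal per gene and library, called CPM in the methods and scaled by a rule that the sources used here do not state. Nor do they give the annotation, the strand setting or the treatment of reads with several positions. Each value (100% of them) lay within 0.01 reads of a whole number of reads, so counts could be recovered. The methods call the libraries biological replicates and do not say whether they came from separate cultures, so p-values measure the spread between these libraries.

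The test was limma 3.58.1 in R 4.3.3 with a mean-variance trend, on log2(CPM + 0.5) of the 17046 genes that averaged at least 0.5 CPM. Treatment was the only term, and p-values were adjusted over all of these genes by Benjamini-Hochberg (threshold 0.05). The recovered counts were also tested with edgeR 4.0.16 and DESeq2 1.42.0. In simulated reads of this comparison (17035 genes) the test called 194 of 198 genes with a 2-fold change (98.0%) and 6 of 16837 genes without one. The simulation used a single spread setting for all genes, with no GC trend and no difference between the R1881 series. It therefore checks the working of the test and does not give the rate of false calls in the real libraries. The histone genes, lists and tests were chosen with earlier results of these data known. Genes named by rule are all variants, the 5 lowest and the 5 highest called cluster genes, the 3 most abundant and the most abundant of each type, the 3 lowest and 3 highest called genes of each regulator list, and SLBP, NPAT and CASP8AP2. Some genes that the rule names are counted but are not reported by name here. Other genes were named after their values were seen. Gene models, stem-loops and 50-base windows are from GENCODE v44 and GRCh38, and start regions from RefSeq (first listed start per gene). Levels per kilobase use the merged exons of a gene. Alternatives were other pseudocounts (0.1 and 1), filters, scalings and tests, a replicate block, either R1881 series, removal of the GC trend, a fold of 2, genes with unique windows, and each library left out. Leaving out libraries 73, 74 and 83 together was added after the data were seen.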

Additional observations from a re-analysis of the deposited data

Results flagged for a closer look

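A library stood apart from the others of its treatment in 2 of 56 groups of values examined (25 named histone genes and 3 class sums, in each treatment), where chance gives about 2.8. H2AFX stood at 47.9 CPM in R1881 library 73, with the next R1881 library at 39.2 CPM and the lowest at 29.8 CPM. HIST1H4E stood at 2.96 CPM in R1881 library 74, with the next R1881 library at 2.07 CPM and the lowest at 1.26 CPM. Both libraries belong to the 3 with the highest relation to GC content.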

How the results depend on the processing

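With a fold of at least 2 added to the threshold, all genes gave 714 lower and 556 higher, the cluster genes 0 lower and 0 higher (1 by edgeR and by DESeq2, HIST1H2AI), the variants 1 lower and 0 higher, and the regulator lists 5 lower and 0 higher. A filter of a mean of at least 5 CPM left 1 lower cluster gene, HIST2H2BE. Library totals made equal shifted the median log2 fold change of all genes from -0.01 to 0.07. They gave 17 higher and 34 lower regulators, beside 6629 higher and 4288 lower genes in all. The summed variants then stood at -0.25 on the log2 scale, beside -0.34 as deposited. With members of at least 80% unique windows only, which leaves out H3F3A, the summed variants stood at -0.45. H3F3B turned to 0.029 with equal totals, and was lower (-0.09) against the R1881 libraries 51 to 55. H3F3C lost its call with equal totals, by edgeR, with a replicate block, against libraries 71 to 75 and without enzalutamide library 82. HIST1H2AK lost its call by DESeq2, against libraries 71 to 75 and in 8 of the 15 fits with a library left out. Under at least 1 setting HIST1H2BF, HIST1H2BK, HIST1H2BD and HIST1H2AE gained a call and H1FX-AS1 lost its call. The other 39 tested histone genes stayed on their side of the threshold under every setting that gave a value, other than the fold of 2. Leaving out a library in turn gave 5 to 6 lower and 12 to 14 higher cluster genes, and 6 to 7 lower and 2 higher variants. Replicate numbers are shared by the treatments, but samples with the same number in the title did not deviate together (correlations -0.07 to 0.07), and none of the 5 enzalutamide libraries was closest to the R1881 library of its own number. By the last digit of the library number the 10 correlations ran from -0.42 to 0.67, with 2 of them, 0.47 and 0.67, above 0.1, so these numbers were not taken to pair the samples. The replicate block on the title gave 6 lower and 13 higher cluster genes, 6 lower and 2 higher variants, and 4775 higher and 5268 lower genes in all. Genes under 5 CPM, 18 of the 33 coding cluster genes, rest on few reads.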
